A study of Homo sapiens with 4 samples.

Results

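The TM9 superfamily, made up of the 4 genes TM9SF1, TM9SF2, TM9SF3 and TM9SF4, was examined in HCT116 derived clones with and without knockdown of plakophilin3 (PKP3). The family was selected on its gene names, taking every probe that the arrays list under one of the 4 symbols, but it came to attention because the log2 difference of TM9SF3 between the clones was already known. This gave 9 probes of the 50238 on the array, 3 for TM9SF1 and 2 for each of TM9SF2, TM9SF3 and TM9SF4, and all 9 passed the filter on dim probes, which asks for a signal well above background on each array of 1 clone or the other and which 30520 probes passed. As the difference between the clones is what drew attention to the family, the values of its members are given as a description with their errors and without a test.

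TM9 proteins are conserved membrane proteins of eukaryotic cells with a large lumenal domain followed by many membrane spans, and they reside in the Golgi apparatus and in endosomes. Their tails carry signals that are read by the coats of transport vesicles, COPI among them, and they are known to help the sorting and surface delivery of other membrane proteins. TM9SF2 is known for its part in the Golgi steps of glycosphingolipid and heparan sulfate synthesis, TM9SF4 for its links to cell adhesion and to the vacuolar proton pump (V-ATPase), and TM9SF1 for links to autophagy. TM9SF3 is a Golgi resident member whose cargo is less well defined.

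HCT116 cells are an established line from a human colorectal carcinoma. The vector control clone (vec) and the knockdown clone (shpkp3-2), which expresses a short hairpin RNA against PKP3 from a stably transfected plasmid, were each hybridized to 2 single color arrays. Both clones were kept under selection, with 5 μg/ml of puromycin in the sample labels and with blasticidin in the methods of the study. Each group is 1 clone, so the values compare this pair of clones, and the p-values measure only the spread between the RNA samples of a clone. The first array of each clone comes from one RNA collection and the second array from another.

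The 75th percentile of the intensities was 499 on the first vec array and 374 to 381 on the others, 60.5% to 63.5% of the spots were well above background, and 0 were saturated. The targeted gene was lower in the clone labelled as its knockdown. PKP3 had signal intensities of 20850.3 and 22840 in vec against 3414 and 3078 in shpkp3-2, a log2 difference of -2.54 with a standard error of 0.23 (limma, adjusted p = 0.0188), and it was not called with no filter on dim probes (adjusted p = 0.135) or with the weaker background flag (adjusted p = 0.145). The 5 markers of simple epithelium that were checked, EPCAM, KRT8, KRT18, KRT19 and CDH1, were well above background on all 4 arrays, with summed intensities of 476615 to 548959. The summed intensities of the markers of other cell types were 112 to 194 for fibroblasts, 163 to 250 for leukocytes and 64.0 to 113 for endothelial cells, and PTPRC, COL1A2, COL3A1, DCN, LUM, CDH5 and KDR were not well above background on any array.

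The probes of the family are 60 bases long. Their full sequences were compared for shared runs of bases, and parts of some of them are printed below. The TM9SF3 probes shared a run of no more than 5 bases with each other. Between probes of different family genes, the longest shared run over 30 pairs was 7 bases. Of the TM9SF1 probes, the 2 that are listed under the RefSeq transcript NM_001014842 overlap by 30 bases, so they read overlapping stretches, while the third is listed under NM_006405. The first lines give the 5′ 30 bases of each TM9SF3 probe and of the NM_006405 probe of TM9SF1, the next the bases that the overlapping TM9SF1 probes share, and the last the 3′ 30 bases of one of these, in which capitals mark the hexamer AATAAA, the common polyadenylation signal.

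TM9SF3, probe of NM_020123: gaagacagaagtgtactctctacaatgcaa
TM9SF3, probe of ENST00000371142: atattatggtgatatccgaacctagtgaat
TM9SF1, probe of NM_006405: ggcgctccaacatgtctggggcagtacaga
TM9SF1, shared by the probes of NM_001014842: gacccatttactttgttgaatacctctttg
TM9SF1, end of a probe of NM_001014842: tgccaggcaaagAATAAAgtggAATAAAat

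The hexamer was searched for in the sense of the probe as the files give it. It occurred 2 times in this TM9SF1 probe and in no other probe of the family, and 4.40% of the 50238 probes on the array hold it. The place of the probes in their transcripts was not determined here, as no transcript sequences were used.

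TM9SF3 was lower in the PKP3 knockdown clone at both of its probes. For the values that follow, the log2 of the signal intensity was taken and the 75th percentile of the array was subtracted, so that a value of 0 is the 75th percentile of the array. The probe of NM_020123 had signal intensities of 1190.5 and 855 on the vec arrays against 107.5 and 84.3 on the shpkp3-2 arrays. Its normalized log2 mean came to 1.21 ± 0.06 (SD, n = 2) in vec against -1.98 ± 0.24 (SD, n = 2) in shpkp3-2, a log2 difference of -3.19 (standard error 0.20). This is 10.9% of the level in vec, or 9.15-fold lower. The knockdown arrays were thus below the vector arrays without overlap, and the nearest pair of arrays of different clones still differed by -2.98. Within the first RNA collection the difference was -3.07, and within the second -3.32. As total RNA of whole cultures was measured, fewer cells that express the gene and less RNA per cell cannot be told apart.

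The other TM9SF3 probe, which the files list under the Ensembl transcript ENST00000371142, was dimmer. Its signal intensities were 274 and 165 in vec against 25.8 and 25.5 in shpkp3-2, and all 4 values were well above background. On the shpkp3-2 arrays they were not far from the dimmest signals that counted as such, which had intensities of 9.74 and 8.41 on those arrays. Its normalized log2 mean came to -1.04 ± 0.24 (SD, n = 2) in vec against -3.88 in both shpkp3-2 arrays. The log2 difference was -2.84 (standard error 0.20), which leaves 14.0% of the vec level, and it was -3.01 and -2.67 within the RNA collections. The clones did not overlap at this probe. With normexp background correction, run with an offset added to every intensity, the differences of the brighter and the dimmer probe were -2.63 and -1.58. Of the 30520 probes tested, 0.0360% had a lower log2 difference than the brighter TM9SF3 probe and 0.0623% a lower one than the dimmer.

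**Figure D1:**
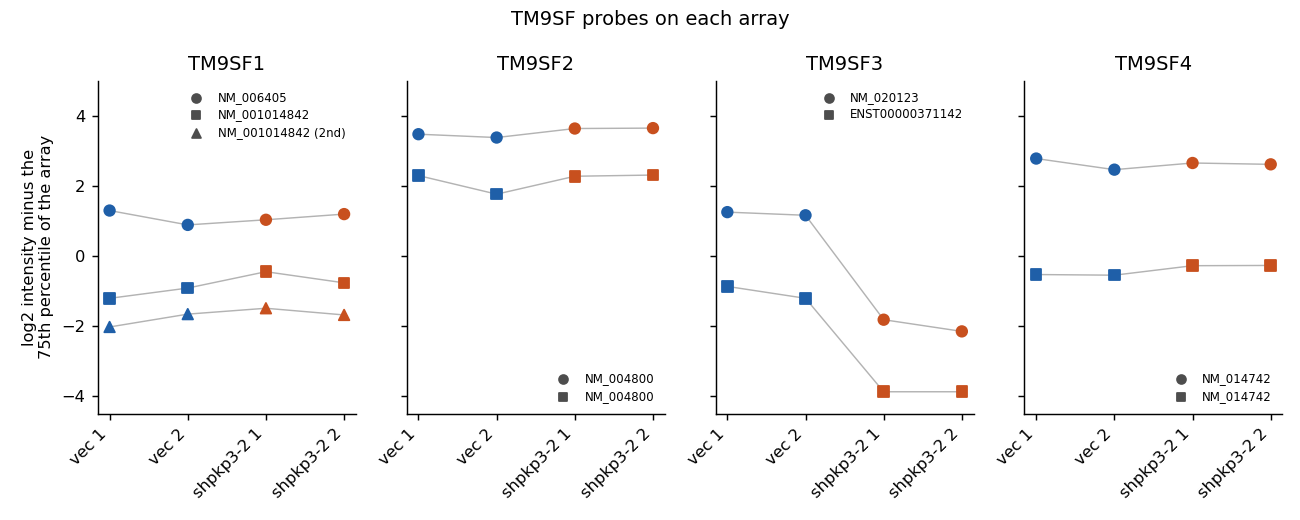
Normalized log2 intensity (y axis, log2 intensity minus the 75th percentile of the array) of each TM9SF probe on the 2 vec arrays (blue) and the 2 shpkp3-2 arrays (orange), with 1 panel per gene, 1 symbol per probe and grey lines joining the values of a probe. Both TM9SF3 probes drop between the clones, from 1.26 and 1.17 to -1.82 and -2.15 for the brighter one, while the probes of TM9SF1, TM9SF2 and TM9SF4 stay near their vec level.

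The other family members were close to the vec level in shpkp3-2. TM9SF1, the member with links to autophagy, had signal intensities of 1229 and 707 in vec against 777 and 859 in shpkp3-2 at the probe of NM_006405. Its normalized log2 mean came to 1.10 ± 0.29 (SD, n = 2) in vec against 1.12 ± 0.11 (SD, n = 2) in shpkp3-2, a log2 difference of 0.02 (standard error 0.21). The clones overlapped at this probe, and the difference was -0.26 in the first RNA collection and 0.31 in the second. It lay between -0.18 and 0.24 over 14 alternative settings and was below 0 in 5 of them.

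The overlapping TM9SF1 probes of NM_001014842 gave larger values than the probe of NM_006405. The brighter of them had signal intensities of 216 and 202 in vec against 278 and 220.3 in shpkp3-2, and its log2 difference was 0.45 (standard error 0.21). At this probe both shpkp3-2 arrays lay above both vec arrays, by 0.15 for the nearest pair. The dimmer one had intensities of 123 and 121 in vec against 135 and 117 in shpkp3-2, with a log2 difference of 0.26 (standard error 0.21), and here the clones overlapped. The difference of this dimmer probe was 0.53 in the first RNA collection and -0.02 in the second. As these probes share 30 of their 60 bases, they are not independent readings, and whether the NM_001014842 and NM_006405 transcripts changed differently was not tested.

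TM9SF2 takes part in Golgi glycosylation. Its brighter probe had signal intensities of 5570 and 3984 in vec against 4733 and 4715 in shpkp3-2. Its normalized log2 mean came to 3.43 ± 0.07 (SD, n = 2) in vec against 3.65 ± 0.01 (SD, n = 2) in shpkp3-2, with both shpkp3-2 arrays above both vec arrays. Its log2 difference was 0.22 (standard error 0.17), and 0.15 to 0.26 over the alternative settings. The dimmer TM9SF2 probe gave intensities of 2456 and 1298 in vec against 1840.1 and 1861 in shpkp3-2. Its log2 difference of 0.26 (standard error 0.23) came from the second RNA collection, with a difference of 0.55, while the first gave -0.02, and the clones overlapped.

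TM9SF4, which is linked to cell adhesion and the proton pump, had intensities of 3439 and 2109.6 in vec against 2392 and 2301 in shpkp3-2 at its brighter probe. Its normalized log2 mean came to 2.63 ± 0.22 (SD, n = 2) in vec against 2.64 ± 0.03 (SD, n = 2) in shpkp3-2. The clones overlapped and the log2 difference was 0.01 (standard error 0.19), between -0.15 and 0.17 over the alternative settings and below 0 in 5 of 14. The dimmer TM9SF4 probe had intensities of 346 and 261 in vec against 313 and 311 in shpkp3-2. Its arrays were close within each clone on the log2 scale, with -0.54 ± 0.01 (SD, n = 2) in vec against -0.27 ± 0.01 (SD, n = 2) in shpkp3-2, and its log2 difference was 0.27 (standard error 0.17).

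Set side by side, the 7 probes of TM9SF1, TM9SF2 and TM9SF4 had log2 differences of 0.01 to 0.45 with a median of 0.26, and standard errors of 0.17 to 0.23, against a median of 0.05 over all probes tested. Both shpkp3-2 arrays lay above both vec arrays at 3 of the 9 family probes, which was the case for 27.2% of all probes tested, and below them at the 2 TM9SF3 probes, which was the case for 18.0%. The clones overlapped at the other 4. For comparison, arrays of vec had a median SD of 0.19 and arrays of shpkp3-2 of 0.11 over 28889 probes that were well above background on all 4 arrays. Of the 9 family probes, 6 had an SD above this median in vec, up to 0.38 for the dimmer TM9SF2 probe, and 4 in shpkp3-2, up to 0.24 for the brighter TM9SF3 probe.

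**Figure D2:**
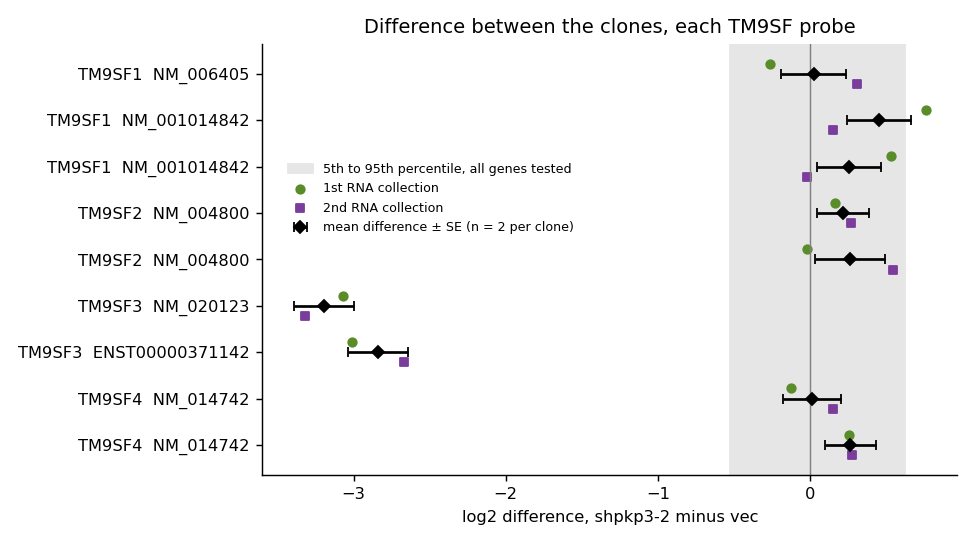
Log2 difference between shpkp3-2 and vec (x axis) for each TM9SF probe, listed with its transcript, as the mean with its standard error (black) and within the first (green) and the second (purple) RNA collection. The grey band spans the 5th to 95th percentile of all genes tested, -0.53 to 0.62, and the TM9SF3 probes at -3.19 and -2.84 lie far to its left while the means of the other 7 lie inside it.

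Genes that work beside the TM9 proteins were examined in 7 lists with 120 genes, of which 116 could be tested at their brightest probe. limma called 0 of the 116 in either direction at an adjusted p of 0.05. Over all 14573 genes tested it called 67, which is 0.460%, and over all probes tested it called 76 (0.249%) higher and 45 (0.147%) lower. At an unadjusted p of 0.05, 9 of the 116 genes passed, against 11.5% of all genes tested. The lowest adjusted p among them was 0.205.

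Subunits of the COPI coat, which carries membrane proteins from the Golgi back to the endoplasmic reticulum, had small positive differences. All 8 that were tested lay between 0.08 for ARCN1 and 0.30 for COPG1, with a median of 0.19, while all genes tested had a median of 0.05. Of all genes tested, 42.6% had a log2 difference below 0. ARCN1 and COPG1 came to -0.02 and -0.01 when vec 2 was left out, and to 0.19 and 0.62 when vec 1 was left out. The 9 p24 cargo receptors, partners of COPI in the early secretory pathway, had a median of 0.29. Their extremes were TMED5 at -0.27 (standard error 0.19), of which the other probes gave -0.15 and 0.48, and TMED9 at 1.90 (standard error 0.46, adjusted p = 0.221 from limma). TMED9 had signal intensities of 842 and 1614 in vec against 3051 and 4657 in shpkp3-2, so the clones did not overlap, but the arrays within a clone were far apart. TMED9 was called when limma was blocked on the RNA collection (adjusted p = 3.34e-05), and its adjusted p reached 0.464 over the settings tried. Its log2 difference was 1.24 with vec 1 left out and 2.57 with vec 2 left out. Genes of Golgi structure, most of them golgins and stacking proteins, had a median of 0.28 over 15 genes. The lowest was TGOLN2, a membrane protein that cycles through the trans-Golgi network, at -0.23, of which another probe gave 0.38. The highest was GOLGA1 at 0.45, of which the others gave 0.23 and 0.57. TGOLN2 came to -0.39 without shpkp3-2 1 and to -0.07 without shpkp3-2 2. GOLGA1 came to 0.22 without vec 1 and to 0.68 without vec 2.

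The V-ATPase acidifies the Golgi, endosomes and lysosomes. Its 21 tested subunits and accessory proteins had a median of 0.10, from ATP6V0C at -0.40 (standard error 0.17; another probe gave -0.77) to ATP6V0A4 at 1.15 (standard error 0.37, adjusted p = 0.316 from limma). ATP6V0A4, an isoform of the membrane sector, was dim, with intensities of 32.3 and 11.4 in vec against 34.4 and 39.5 in shpkp3-2, and only the second vec array stood apart. It was called by limma in the blocked fit (adjusted p = 0.0255), and with vec 1 left out (1.71, adjusted p = 0.0364). Its log2 difference was 0.60 with vec 2 left out and 0.45 with normexp, and its adjusted p reached 0.690 over the settings tried.

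Genes of glycosphingolipid synthesis, enzymes together with the membrane protein LAPTM4A, had a median of -0.08 over 10 genes. At its brighter probe, B4GALT6, a lactosylceramide synthase, had a log2 difference of -0.96 with a standard error of 0.22 (limma, adjusted p = 0.205) and intensities of 29.1 and 16.0 in vec against 9.36 and 9.83 in shpkp3-2, close to the background, and the difference was -0.08 with normexp. The highest value of this list was 0.28, for B3GALT4, a galactosyltransferase of the ganglioside branch, of which the other probes gave 0.15, 0.12 and 0.21. It came to 0.11 without vec 1 and to 0.45 without vec 2. Heparan sulfate synthesis had a median of -0.08 over 22 genes. XYLT1, which starts the linker to the core protein, had the lowest value, -0.43 (standard error 0.33), which was 0.02 without vec 1 and 0.48 at its other probe. The sulfotransferase NDST2 had the highest, 0.74 (standard error 0.21, adjusted p = 0.279 from limma), and 0.51 at its other probe.

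The 31 autophagy genes had a median of 0.01. WIPI1, which binds phosphoinositides on forming autophagosomes, had a log2 difference of 0.69 (standard error 0.21, adjusted p = 0.304 from limma). GABARAPL2, a protein of the family that coats autophagosomes, had a log2 difference of -0.68 (standard error 0.61) that rested on the first shpkp3-2 array. Its intensities were 16867 and 9476 in vec against 3482 and 13366 in shpkp3-2 at the brighter probe, where the difference without the first shpkp3-2 array was 0.30, and its other probe gave 0.06.

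**Figure D3:**
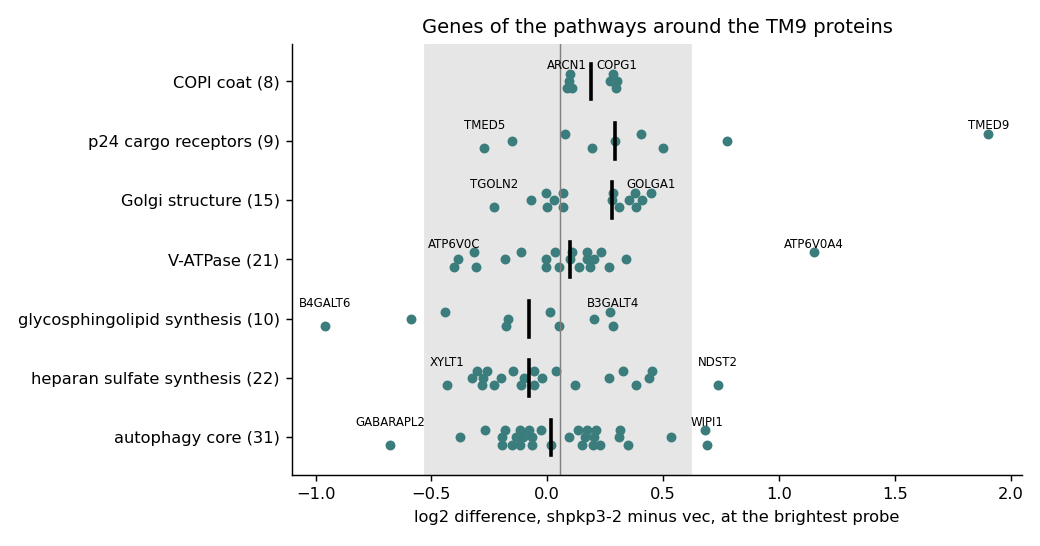
Log2 difference between shpkp3-2 and vec (x axis) at the brightest probe of each gene in 7 lists, with the number of genes tested in brackets, the list median as a black bar and the extremes named. The grey band spans the 5th to 95th percentile of all genes tested and the line their median of 0.05, and 0 of the 116 genes were called.

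TM9SF3 lies on chromosome 10, while TM9SF1, TM9SF2 and TM9SF4 lie on chromosomes 14, 13 and 20. To see whether genes next to TM9SF3 had a like difference, the 5 tested genes before it and the 5 after it were taken in the order of the NCBI RefSeq annotation of GRCh38.p14. Their median log2 difference was 0.15, and limma called 0 of the 10 (lowest adjusted p = 0.116), with CCNJ and FRAT1 at an unadjusted p under 0.05, which 11.5% of all genes tested reached. The nearest tested genes were TLL2, at 0.13 (standard error 0.18), and PIK3AP1, at 0.43 (standard error 0.32). When 1 array was left out, TLL2 came to 0.01 to 0.24, the lowest without shpkp3-2 2 and the highest without shpkp3-2 1. PIK3AP1 came to 0.04 to 0.81, the lowest without shpkp3-2 1 and the highest without shpkp3-2 2. It was dim, with intensities of 13.1 and 14.5 in vec against 21.1 and 12.2 in shpkp3-2. Only CCNJ, which encodes a cyclin and is 3 tested genes away from TM9SF3, differed by more than 1 on the log2 scale. Its intensities were 805 and 626 in vec against 308 and 233 in shpkp3-2, with no overlap, and its log2 difference was -1.19 (standard error 0.20). CCNJ was called by limma in the fit blocked on the RNA collection (adjusted p = 0.0104) and after normexp correction of the background (-1.04, adjusted p = 0.0335), while its adjusted p reached 0.394 over all settings. ZNF518A, between CCNJ and TLL2, had a log2 difference of 0.16 (standard error 0.18). The 10 neighbours of each of TM9SF1, TM9SF2 and TM9SF4 had medians of 0.17, -0.03 and -0.11, and 0 of them were called.

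**Figure D4:**
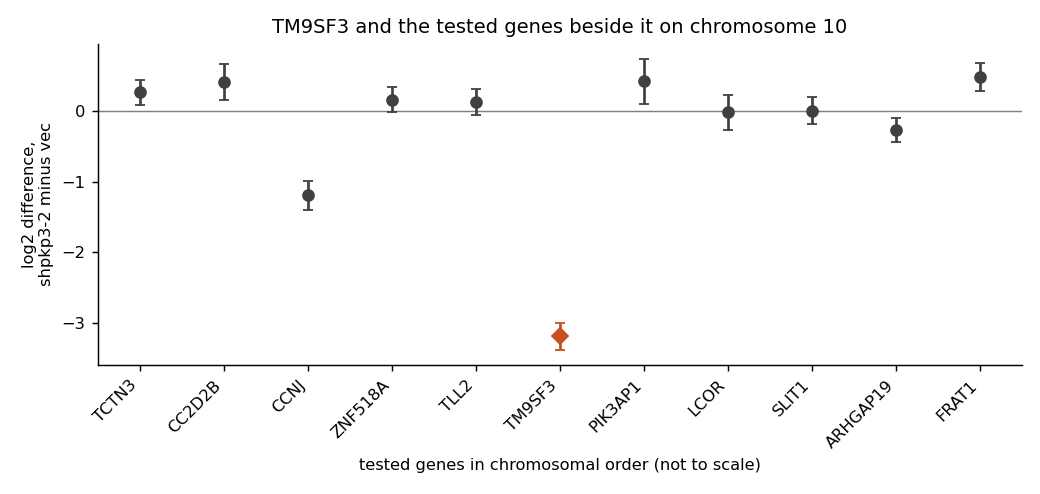
Log2 difference between shpkp3-2 and vec (y axis, with the standard error) for TM9SF3 and the 5 tested genes on either side of it on chromosome 10, in order but not to scale along the x axis. Each gene is shown at its brightest probe. TM9SF3 at -3.19 stands below its neighbours, of which CCNJ at -1.19 is the lowest and the others lie between -0.27 and 0.49. Further probes of LCOR, shown at -0.02, gave 0.51, 0.54 and -0.43.

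To describe which genes shared the profile of TM9SF3, the normalized log2 values of each probe were centred on their mean over the 4 arrays and compared by Euclidean distance with the brighter TM9SF3 probe, over 14074 genes that were well above background on all 4 arrays. The nearest genes were CD33 (distance 0.25), STXBP6 (0.36), DNAH2 (0.46), BDNF (0.52) and UTS2B (0.58). The dimmer TM9SF3 probe lay at 0.46, so that CD33 and STXBP6 were nearer to the brighter probe than it was. CD33 encodes a lectin that binds sialic acids, STXBP6 a protein that binds the SNARE fusion machinery, DNAH2 a heavy chain of axonemal dynein, BDNF a neurotrophin and UTS2B a peptide hormone. Their log2 differences were -3.26, -3.05, -3.58, -2.92 and -3.13. The probes of a gene did not always give the same size, as another BDNF probe gave -2.04, while another CD33 probe gave -3.26 and another STXBP6 probe -3.35. The third STXBP6 probe was well above background on 0 of the 4 arrays and the other DNAH2 probe on 1, so that the value of DNAH2 rests on 1 probe. That dim probe had normalized log2 values of -5.89 and -7.04 in vec against -6.20 and -5.14 in shpkp3-2, which overlap. With 4 arrays in 2 groups, this likeness mostly says that the genes had a difference of like size between the clones.

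**Figure D5:**
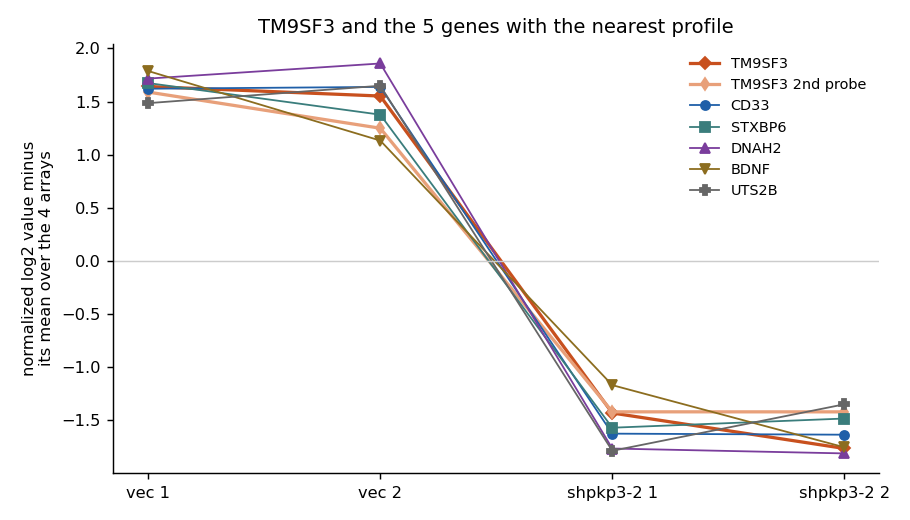
Normalized log2 values on the 4 arrays (x axis), each centred on its own mean (y axis), for both TM9SF3 probes and the nearest probes of the 5 genes closest in profile to the brighter one. All of them lie above their mean on the vec arrays and below it on the shpkp3-2 arrays, with log2 differences of -3.58 to -2.84.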

How the data were processed

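Cy3 labeled RNA of the vec and shpkp3-2 clones was measured on 4 single color Agilent arrays of 1 slide, whose positions follow the clones, so that position and clone cannot be told apart. The authors ran Feature Extraction (version 10.7.3.1 per the file headers, 9.1 in the submitters' processing notes) on a design built on hg18 and deposited its output, in which the intensity is background subtracted and detrended but not scaled between arrays. The deposited flags (well above background, positive and significant, outlier, control) are another kind of value.

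From the log2 intensities of each array, their 75th percentile (51538 spots, controls excluded) was subtracted, 26 to 39 outlier spots per array were left out, and spots of a probe were averaged. limma 3.58.1 in R 4.3.3 (lmFit, eBayes, no covariates) was fitted to the 30520 probes with signals well above background in both RNA samples of either clone, and p-values were adjusted by Benjamini-Hochberg. Python 3.11.15, pandas 2.3.3 and matplotlib 3.10.9 were used for sequences and figures. Probes were matched to RefSeq symbols of GRCh38.p14, 28595 by accession, 2998 by symbol and 1176 by an older symbol, and 17469 had no match. The brightest probe with a value on all 4 arrays stands for a gene, and a gene counts as tested if that probe passed the filter.

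The members and the lists were chosen with earlier results of these data known. Named are all family probes, PKP3, genes called and the extremes of each list, the 5 nearest profiles and 5 neighbours on either side of TM9SF3. The design text pairs same-numbered arrays by RNA collection, though their deviations from the clone means had a correlation of -0.20 across probes. On simulated arrays, 2 against 2 with 30520 probes, limma recovered 81 of 100 changes of 2 on the log2 scale and 96 of 100 changes of 3, and called 9 unchanged probes. Precision is limited by having 2 arrays per clone.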

Additional observations from a re-analysis of the deposited data

How the results depend on the processing

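The differences of TM9SF3 kept their direction under every setting tried, from -3.36 to -2.63 for the brighter probe and from -3.01 to -1.58 for the dimmer. The values nearest 0 came from normexp background correction, which was run with an offset. The mean of the probes of a gene gave -3.02 for TM9SF3 and 0.24 for TM9SF1, and normexp, quantile normalization and median centring gave 0.15 for TM9SF2. limma called 503 probes higher and 338 lower with the replicate block of the RNA collection, including 1 p24 gene (TMED9) and 1 V-ATPase gene (ATP6V0A4). The crossed pairing, chosen after seeing the data, gave 64 and 40. Quantile normalization gave 42 higher and 32 lower, the floor on low signals 51 and 30, no filter on dim probes 10 and 8, probes well above background on all arrays 25 and 21, and the weaker background flag 1 and 1. Without vec 1, vec 2, shpkp3-2 1 or shpkp3-2 2, the counts were 171, 108, 243 or 224 higher and 142, 154, 55 or 80 lower, and 0 to 1 V-ATPase genes were called. With an array left out, the lone array of a clone is assumed to vary like the other clone. The cause of these moves was not tested. The block changed the call of TMED9, ATP6V0A4 and CCNJ and of no other gene named with a test here. The arrays of a clone number 2, and dim probes such as those of B4GALT6 and ATP6V0A4 are limited by the background.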
